A study of Mus musculus with 2 samples.

Results

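*Ccn1*, *Ccn2*, *Ankrd1*, *Crim1*, *Axl*, *Ajuba*, *Myof*, *Nt5e*, *F3* and *Tgfb2* are 10 genes that are classic targets of the transcriptional coactivator YAP1 in other tissues and cell lines. They were picked by symbol, as 10 of the 32285 genes measured. The data are 2 10x Genomics 3' single-cell RNA-seq libraries of whole E7 mouse embryos, 1 library per genotype. The control library pooled 4 embryos that carried the Sox2cre driver and 1 floxed *Yap1* allele (Sox2cre:Yapflox/+), although its genotype label reads WT. The *Yap1* cKO library pooled 3 embryos with the same driver and both alleles floxed (Sox2cre:Yapflox/flox). All groups therefore carry the Cre driver, and the control is heterozygous wherever the driver acted. Sox2-Cre recombines in the epiblast and in the lineages that arise from it, and spares the extraembryonic ectoderm and visceral endoderm. The paper cautions that these tissues are probably heterozygous for *Yap1* in its embryos with both alleles floxed, control and cKO, through a deleted allele from the father. The control embryos pooled here had 1 floxed allele, so the caution as worded covers the *Yap1* cKO library and not this control. The extraembryonic tissues are therefore not an unaltered comparison, and the 2 libraries may not be matched in them.

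YAP1 does not bind DNA by itself. When the Hippo kinases are inactive it enters the nucleus, binds TEAD factors and activates genes whose regulatory DNA holds the TEAD motif, and WWTR1 (TAZ) is its paralog. Its best known targets include secreted matricellular proteins (*Ccn1*, *Ccn2*), cytoskeletal and junctional regulators (*Ajuba*, *Ankrd1*) and cell surface proteins (*Axl*, *F3*, *Nt5e*, *Crim1*). Most of these were described in adherent cultured cells, in liver or in tumours, and at gastrulation the epiblast gives rise to the primitive streak, mesoderm and node while the extraembryonic ectoderm and visceral endoderm surround it.

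The TEAD motif was searched in the RefSeq promoters on GRCm38 of the 9 of the 10 genes that matched that table, as GGAATG or its reverse complement CATTCC. *Ccn2* had no promoter in the table, so its promoter was not searched and nothing is known here of its motif. Each promoter runs from 250 bases before to 50 bases after the start of the gene. The letters occurred in the promoters of 5 genes, *Ccn1*, *Ankrd1*, *Crim1*, *Axl* and *Ajuba*, with 2 matches in *Ankrd1* and 2 in *Ajuba*. They occurred in 14.7% of all 32851 promoters in the table. The stretches of *Ccn1* and *Ajuba* are shown because these genes had the lowest ratios among the well counted members, and those of *Crim1* and *Axl* because the same letters stand there beside ratios near 1. Capitals mark the motif, and each stretch is written 5′ to 3′ on the strand of its gene.
Ccn1, chr3:145650036-145650135, minus strand: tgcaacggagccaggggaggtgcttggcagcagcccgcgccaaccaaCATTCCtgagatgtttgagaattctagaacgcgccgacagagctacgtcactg
Ajuba, chr14:54577784-54577883, minus strand: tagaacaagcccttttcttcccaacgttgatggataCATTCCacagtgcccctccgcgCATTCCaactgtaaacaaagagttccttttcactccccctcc
Crim1, chr17:78200149-78200194, plus strand: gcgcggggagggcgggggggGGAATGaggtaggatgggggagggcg
Axl, chr7:25788941-25788983, minus strand: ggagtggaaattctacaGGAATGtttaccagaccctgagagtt
Counted from the RefSeq start, the motif begins 103 bases before *Ccn1*, 186 and 164 bases before *Ajuba*, 79 bases before *Crim1* and 233 bases before *Axl*. RefSeq starts can differ from the GENCODE gene positions given below. That of *Ajuba* lies 103 bases upstream of the GENCODE gene, and those of *Ankrd1* and *Nt5e* lie 255 and 412 bases inside it. A match is a description of these letters and was not tested for binding.

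The control library held 1829 barcodes and 70573418 unique molecular identifiers (UMIs, each a counted transcript molecule), and the *Yap1* cKO library 1897 barcodes and 87937858 UMIs. Barcodes with at least 5000 detected genes were kept, and 789 cells of the control and 864 of the *Yap1* cKO remained. The median cell held 75678 UMIs in the first and 80922 in the second. No kept cell shared its barcode with a cell of the other library. Both libraries are labelled female, but 407 control and 134 *Yap1* cKO cells held Y-linked UMIs and no *Xist*, so both pools held male and female embryos, in different proportions. Cells were assigned to 9 populations by sums of marker genes, and population names stand for epiblast-like cells, primitive streak-like cells and so on. Of each population's markers, at least 7 lay above the median of the other populations in either library. Some markers of every population, and all of those of extraembryonic ectoderm, were also summed to select its cells. For these genes a high level was fixed by the selection and is no independent check. Among the listed markers, *Nkx2-5* was at 0 in lateral and cardiac mesoderm and *Hba-x* in blood and endothelial progenitors, in both libraries. *Mixl1* lay above the median of the other populations in control primitive streak but below it in *Yap1* cKO primitive streak. *Klf1* in blood and endothelial progenitors and *Nog* in node and axial mesendoderm lay below that median in both libraries. *Hbb-bh1* was at 0 in the blood and endothelial progenitors of the *Yap1* cKO. Of these markers at 0 or below the median, only *Mixl1* was among the genes summed to select cells. In node and axial mesendoderm *Cer1* stood at 325 CPM in control and 317 in *Yap1* cKO, *Sox17* at 286 and 129, and *Foxa2* at 148 and 130. *Noto* was at 27.5 and 12.0 CPM and *Shh* at 1.54 and 0.455. The paper annotated an endoderm cluster, but no separate endoderm population was gated here, so the name does not mean node cells alone. The 6 embryonic populations held 508 control and 523 *Yap1* cKO cells, led by the epiblast with 261 and 250.

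With 1 library per genotype no test was possible. Levels are CPM (UMIs scaled to a fixed library total of 1000000) over the summed cells of a population, ratios are *Yap1* cKO over control, and brackets give exact 95% intervals that cover counting error only, not variation between embryos. *Yap1* itself stood at 29.9 CPM in control embryonic cells and at 1.69 CPM in those of the *Yap1* cKO, a ratio of 0.0566 [0.0447 to 0.0707]. It was 25.0 and 17.3 CPM in the extraembryonic ectoderm (ratio 0.691) and 32.2 and 27.7 CPM in the visceral endoderm (ratio 0.859). In the 18 anterior visceral endoderm cells of each library its ratio was 0.330 [0.174 to 0.60], on 37 and 17 UMIs. The paralog *Wwtr1* stood at 17.5 and 17.7 CPM in embryonic cells (ratio 1.01 [0.911 to 1.11]).

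Some of the 10 targets were lower in the embryonic cells of the *Yap1* cKO and others had ratios nearer 1. *Ccn1*, *Ajuba*, *Ccn2* and *F3* were at least 1.5-fold lower. *Crim1*, *Tgfb2*, *Myof*, *Axl* and *Nt5e* had ratios between 0.807 and 1.18 whose intervals all included 1. Among these only *Crim1* [0.797 to 1.07] had an interval inside 1.5-fold in both directions, so the others were not shown to be unchanged. The interval of *Tgfb2* [0.633 to 1.03] overlapped that of *F3* [0.477 to 0.803]. *Ankrd1* had 9 embryonic UMIs in all and could not be compared. These 4 lower genes stand among 9 with at least 20 UMIs, where 7.22% of the 16732 genes with as many UMIs were past the same fold downward. No member was 1.5-fold higher, against 3.41% of genes. The median log2 ratio of the 9 members was -0.31, and that of all genes tested was -0.06.

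**Figure D1:**
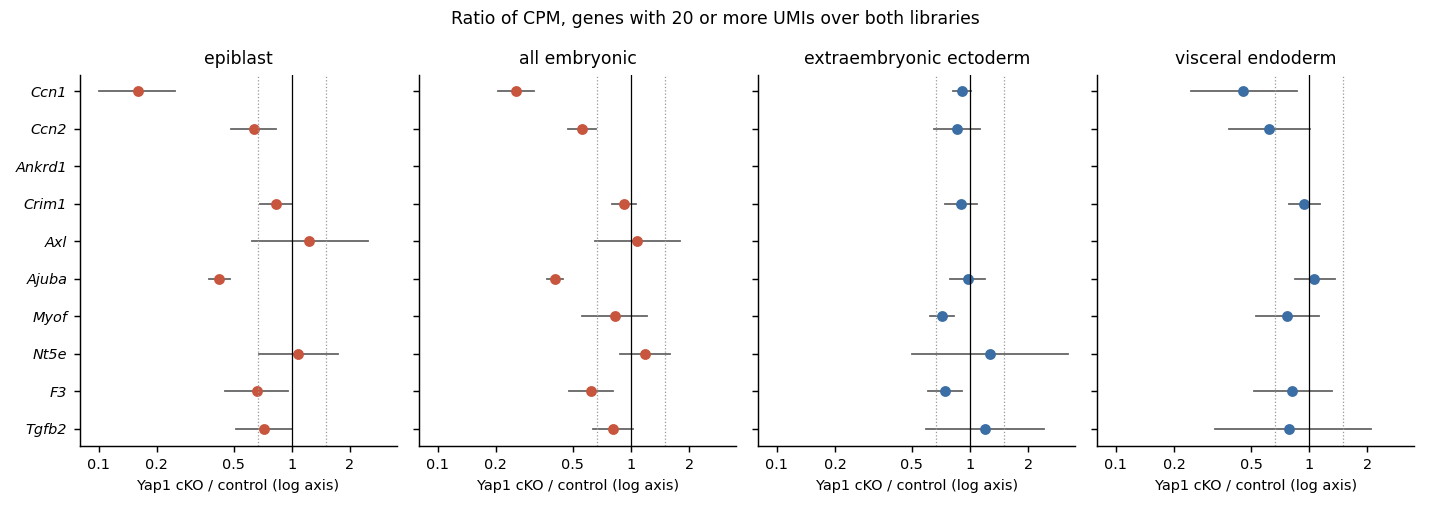
Ratio of *Yap1* cKO to control CPM (log axis) of each target with at least 20 UMIs over both libraries, in epiblast, all embryonic cells, extraembryonic ectoderm and visceral endoderm. Points are ratios, lines their exact 95% counting intervals, dotted lines a 1.5-fold difference in either direction. In all embryonic cells *Ccn1* (0.256) and *Ajuba* (0.406) lie farthest left, and in the extraembryonic ectoderm no target passes a dotted line.

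*Ccn1* (ENSMUSG00000028195, chr3:145646976-145649981, minus strand) encodes CYR61, a secreted matricellular protein that binds integrins. In epiblast it reached 6.23 CPM [5.22 to 7.39] in control cells against 1.0 CPM [0.647 to 1.48] in *Yap1* cKO, from 133 and 25 UMIs. The 2 intervals do not overlap, and the ratio was 0.160 [0.10 to 0.247], a 6.23-fold lower level. The ratio was 0.414 in the primitive streak, 0.20 in the lateral and cardiac mesoderm, 0.240 in the blood and endothelial progenitors and 0.393 in the node and axial mesendoderm. In each of these populations the interval of the ratio lay below 1. In nascent mesoderm *Ccn1* was low in both libraries, with 8 and 11 UMIs and a ratio of 0.829 [0.304 to 2.38].

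The highest *Ccn1* level of the embryo was outside the deleted tissue. The extraembryonic ectoderm held 50.5 CPM in the control library and 45.9 CPM in the other (ratio 0.910 [0.820 to 1.01]), above every other population in both libraries without overlap of intervals. It carried 68.4% of all *Ccn1* UMIs of control cells and 78.6% of those of *Yap1* cKO cells. Below it in control, node and axial mesendoderm and blood and endothelial progenitors were both at 20.8 CPM, then lateral and cardiac mesoderm at 12.7 CPM and anterior visceral endoderm at 11.6 CPM, and neighbours in this order had overlapping intervals down to nascent mesoderm at 2.03 CPM. In *Yap1* cKO the epiblast was last in the order. The visceral endoderm, which Sox2-Cre spares, had 20 and 26 UMIs of *Ccn1*, 3.41 and 1.55 CPM, and a ratio of 0.456 [0.245 to 0.861]. RNA freed from other cells, read from the extraembryonic ectoderm genes *Elf5* and *Wnt7b*, would account for about 3.30 and 0.49 of these UMIs.

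*Ccn2* (ENSMUSG00000019997, chr10:24595442-24598683, plus strand) encodes CTGF, a matricellular relative of CYR61, and had another distribution. Its control level was highest in lateral and cardiac mesoderm (16.1 CPM) and primitive streak (15 CPM), which did not differ beyond their intervals, and 6.28 CPM in epiblast. In *Yap1* cKO the same 2 populations came first, at 9.42 and 8.64 CPM. The epiblast ratio was 0.637 [0.487 to 0.832] on 134 and 100 UMIs. The node and axial mesendoderm showed the lowest ratio, with 24 control UMIs and 3 *Yap1* cKO UMIs (ratio 0.110 [0.0213 to 0.364]). The blood and endothelial progenitors, with 14 and 16 UMIs, were at 0.977 [0.447 to 2.16], an interval too wide to tell a lower level from an equal one. Over all embryonic cells *Ccn2* was 8.57 and 4.78 CPM, a ratio of 0.557 [0.470 to 0.660] whose interval does not overlap that of *Ccn1* (0.205 to 0.316). The antisense gene Gm15270 overlaps *Ccn2* on the other strand and had 193 UMIs.

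*Ajuba* (ENSMUSG00000022178, chr14:54567472-54577558, minus strand) encodes a LIM domain scaffold of adherens junctions that also binds the LATS kinases. It was the best counted target in embryonic cells, with 1278 and 629 UMIs, or 31.6 CPM [29.9 to 33.4] in control cells against 12.8 CPM [11.9 to 13.9] in *Yap1* cKO cells. The ratio was 0.406 [0.368 to 0.447], and each of the 6 embryonic populations had a ratio whose interval lay below 1, from 0.326 in lateral and cardiac mesoderm to 0.565 in node and axial mesendoderm. In control, *Ajuba* was 37.7 CPM in epiblast, 34.3 CPM in lateral and cardiac mesoderm and 31.7 CPM in primitive streak, against 12.3 CPM in the extraembryonic ectoderm. In *Yap1* cKO the epiblast held 15.9 CPM and the extraembryonic ectoderm 12.0 CPM. The embryonic excess seen in control was therefore smaller in *Yap1* cKO, where the visceral endoderm, at 17.0 CPM, and the epiblast did not differ beyond their intervals. The extraembryonic ratios were 0.970 [0.786 to 1.19] in ectoderm, 1.06 [0.839 to 1.36] in visceral endoderm and 1.08 [0.490 to 2.45] in anterior visceral endoderm. The ectoderm value pools 0.612 [0.363 to 0.981] in cells with Y-linked UMIs (147 and 20 UMIs of *Ajuba*) and 1.35 [0.952 to 1.93] in cells with *Xist*. In visceral endoderm the same sets of cells were at 2.02 [1.13 to 3.60] (27 and 26 UMIs) and 1.06.

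*F3* (ENSMUSG00000028128, chr3:121723537-121735048, plus strand) encodes tissue factor, the membrane protein that starts the clotting cascade. Its embryonic levels were 3.49 CPM (control) and 2.16 CPM (*Yap1* cKO) (141 and 106 UMIs, ratio 0.620 [0.477 to 0.803]). The lowest ratio was in the node and axial mesendoderm, which had 7.46 and 2.27 CPM (29 and 10 UMIs, ratio 0.305 [0.132 to 0.643]). The 29 control UMIs came from 8 of 50 cells, and the 10 *Yap1* cKO UMIs from 10 of 50. The share of cells with an *F3* UMI was therefore not lower there in *Yap1* cKO, and the ratio rested on a few control cells. The interval takes UMIs as independent, so it is too narrow here. The lateral and cardiac mesoderm was near equal at 2.83 and 2.75 CPM. *F3* was highest in the extraembryonic ectoderm, at 15.3 and 11.4 CPM, with a ratio of 0.742 [0.605 to 0.908] that overlaps the embryonic one. Its lower level was therefore not shown to be particular to the deleted cells. The embryonic ratio was 0.680 with marker thresholds multiplied by 2 and 0.707 with thresholds divided by 2, both inside the 1.5-fold limit.

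**Figure D2:**
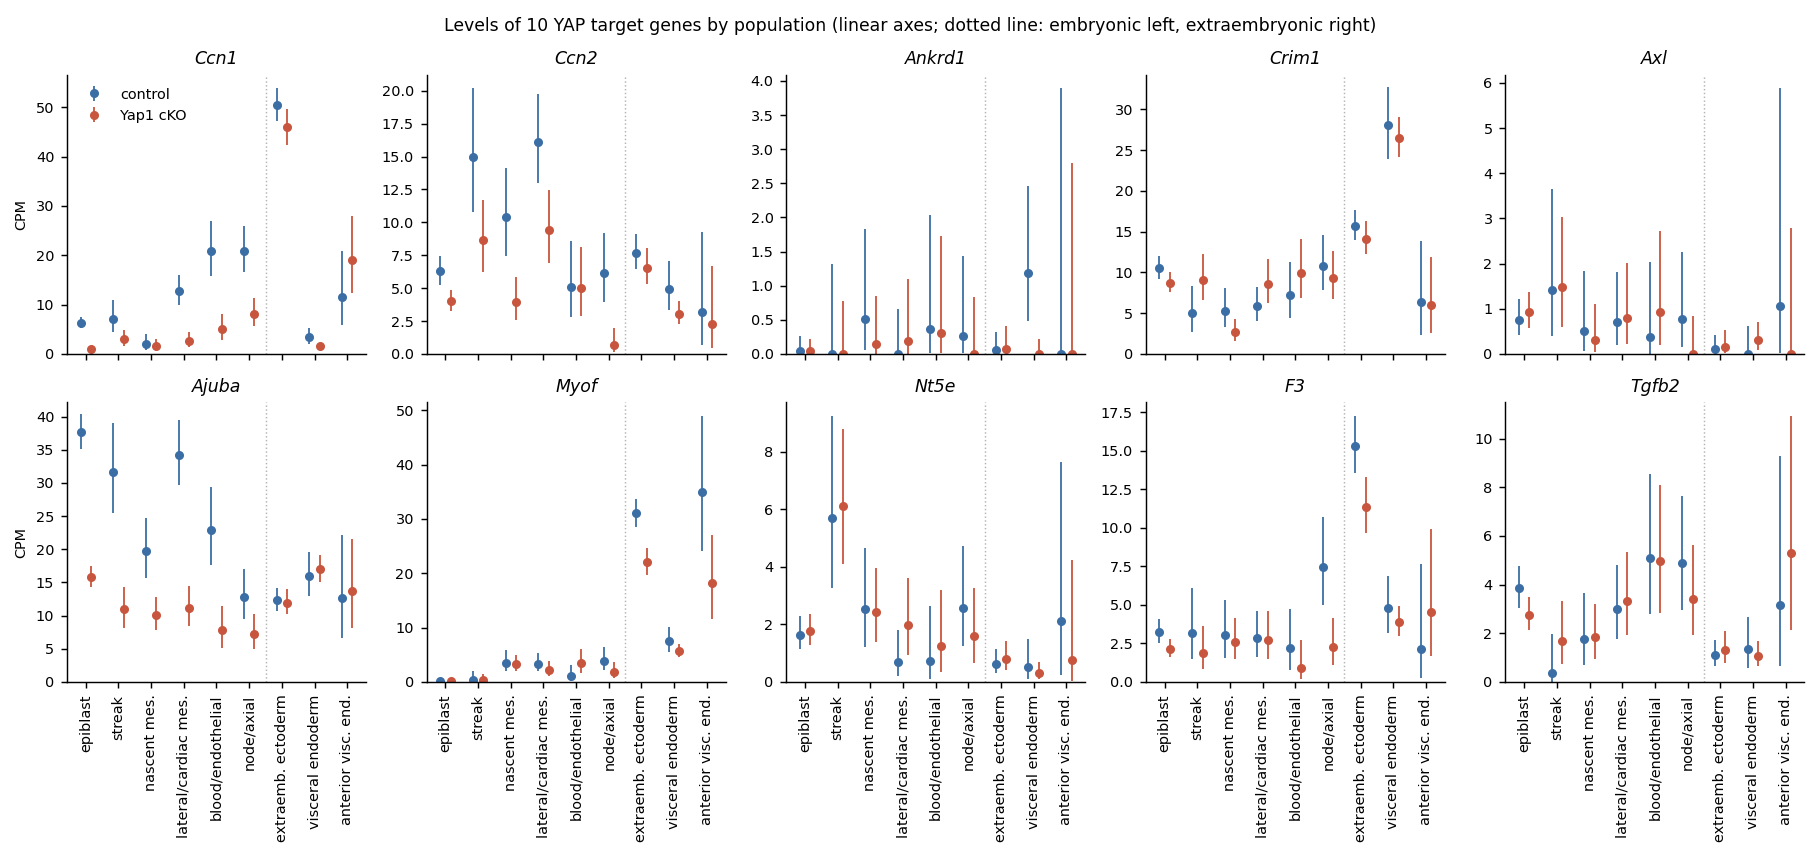
CPM of each target (linear axes, a different range for each gene) in the 9 populations of the control (blue) and *Yap1* cKO (red) library, with exact 95% Poisson intervals. Embryonic populations are left of the dotted line. *Ajuba* in control is highest in epiblast (37.7 CPM), *Ccn1* and *F3* in extraembryonic ectoderm (50.5 and 15.3 CPM), and *Crim1* in visceral endoderm (28.1 CPM).

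*Crim1* and *Tgfb2* act in BMP and TGF-beta signalling, the first as a transmembrane protein that binds BMPs and the second as a ligand. *Crim1* (ENSMUSG00000024074, chr17:78200248-78376592, plus strand) was well counted, with 355 and 397 embryonic UMIs, and its levels were 8.79 CPM (control) and 8.10 CPM (*Yap1* cKO) (ratio 0.922 [0.797 to 1.07]). An effect of the size seen for *Ajuba* or *Ccn1* lies outside this interval. Single populations went either way on few UMIs. *Crim1* was 4.99 and 9.06 CPM in primitive streak (14 and 43 UMIs, ratio 1.82 [0.975 to 3.60]) and 5.32 and 2.75 CPM in nascent mesoderm (21 and 18 UMIs, ratio 0.517 [0.260 to 1.02]), and both intervals include 1. Its highest level was in visceral endoderm, 28.1 and 26.5 CPM (ratio 0.944). *Fez2* overlaps *Crim1* on the other strand, with 2317 UMIs. *Tgfb2* (ENSMUSG00000039239, chr1:186622792-186705989, minus strand) was 3.47 and 2.80 CPM in embryonic cells (140 and 137 UMIs, ratio 0.807 [0.633 to 1.03]).

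*Axl* and *Nt5e* were scarce in embryonic cells. *Axl* (ENSMUSG00000002602, chr7:25757273-25788705, minus strand), a receptor tyrosine kinase for GAS6, had 30 and 39 embryonic UMIs and a ratio of 1.07 [0.649 to 1.79]. *Nt5e* (ENSMUSG00000032420, chr9:88327197-88372092, plus strand), the ectoenzyme CD73 that makes adenosine from AMP, had 77 and 110 UMIs and a ratio of 1.18 [0.872 to 1.6]. Its level was highest in primitive streak in both libraries, 5.70 and 6.11 CPM, against 1.64 and 1.76 CPM in epiblast. At these counts the *Axl* interval spans differences past 1.5-fold in both directions.

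*Myof* (ENSMUSG00000048612, chr19:37899036-38043577, minus strand) encodes myoferlin, a membrane repair protein, and was nearly absent from the epiblast, with 4 and 3 UMIs. In extraembryonic ectoderm it was 31.0 and 22.1 CPM (538 and 303 UMIs, ratio 0.713 [0.617 to 0.822]), and in anterior visceral endoderm 34.9 and 18.2 CPM (33 and 24 UMIs, ratio 0.522 [0.295 to 0.910]). *Myof* was thus lower in extraembryonic ectoderm, which the Cre driver spares, and in the anterior visceral endoderm gate. The interval of its ratio over all embryonic cells, 0.824 [0.559 to 1.22], included 1. In the same extraembryonic ectoderm the ratio of *Yap1* was 0.691, and in the anterior visceral endoderm it was lower still, as given above. The cells of the anterior visceral endoderm gate were therefore not shown to be spared. The part of the *Yap1* difference in the *Myof* value was not tested.

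*Ankrd1* (ENSMUSG00000024803, chr19:36111961-36120099, minus strand), a muscle ankyrin repeat protein gene widely used as a YAP readout, was at the limit of detection, with 13 control and 5 *Yap1* cKO UMIs over all cells. In visceral endoderm the control library had 7 UMIs and the *Yap1* cKO library 0, a ratio with a counting interval of 0 to 0.243. These 7 UMIs came from 2 cells, 1 of which held 6, and the 204 *Yap1* cKO cells of this population held none. The interval takes UMIs as independent, so it is too narrow here and no fold is drawn from it.

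The count of lower targets varied among the embryonic populations. In epiblast, *Ccn1*, *Ccn2*, *Ajuba* and *F3* were past the fold, 4 of the 8 targets with at least 20 UMIs, against 5.81% of all genes with as many, and no target was higher, against 4.04%. In primitive streak, *Ccn1*, *Ccn2* and *Ajuba* were 3 of 5, against 9.05%, and *Crim1* was past the fold upward (ratio 1.82). No upward share of all genes was taken in primitive streak. Nascent mesoderm had 3 of 6, *Ccn2*, *Ajuba* and *Crim1*, against 5.66%. Lateral and cardiac mesoderm had 4 of 7, *Ccn1*, *Ccn2*, *Ajuba* and *Myof*, against 5.55%, with *Myof* on 19 and 11 UMIs. Blood and endothelial progenitors had 2 of 5, *Ccn1* and *Ajuba*, against 5.83%. Node and axial mesendoderm had 5 of 7, *Ccn1*, *Ccn2*, *Ajuba*, *F3* and *Myof*, against 11%, the highest background of the 9 populations. The *F3* ratio there rested on a few control cells, as given above. *Ajuba* was the one target past the fold in all 6.

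In extraembryonic ectoderm 0 of 8 targets were past the fold downward, against 4.38% of genes, and 0 were past it upward, against 6.77%. Within Y-bearing extraembryonic ectoderm, 112 control and 19 *Yap1* cKO cells, 4 targets were past it downward, and within *Xist*-bearing cells 0 were. They were *F3* (0.497), *Ccn2* (0.597), *Ajuba* (0.612) and *Crim1* (0.613). The *Ccn2* interval, 0.287 to 1.12 on 83 and 11 UMIs, included 1. *Yap1* itself was at 0.610 in the Y-bearing and 0.869 in the *Xist*-bearing cells. The share of all genes past the fold was not taken within these sets of cells. In visceral endoderm *Ccn1* and *Ccn2* were past it, 2 of 7, against 6.31%, and none was higher, against 5.73%. In anterior visceral endoderm *Myof* was past the fold downward, 1 of 3, against 7.65%, with the limit given above. *Ccn1* was past it upward there, at 11.6 and 19.0 CPM (11 and 25 UMIs, ratio 1.63 [0.774 to 3.67]). No upward share of all genes was taken in anterior visceral endoderm.

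Male and female cells of a pool come from different embryos, so the ratios were also taken within cells holding Y-linked UMIs and within cells holding *Xist*. These are parts of the same 2 libraries and not replicates. Over all embryonic cells *Ajuba* was at 0.389 [0.321 to 0.469] in Y-bearing and 0.416 [0.368 to 0.471] in *Xist*-bearing cells. *Ccn1* was at 0.162 [0.0888 to 0.275] and 0.248 [0.192 to 0.319], and *F3* at 0.578 and 0.651. For these 3 genes both sets of cells gave a lower level in *Yap1* cKO. *Ccn2* was different, at 0.850 [0.643 to 1.11] in Y-bearing cells (172 and 80 UMIs) and 0.465 [0.369 to 0.585] in *Xist*-bearing cells (161 and 146 UMIs), and these intervals do not overlap. In epiblast the *Ccn2* ratio was 1.09 [0.715 to 1.66] in Y-bearing and 0.444 [0.308 to 0.637] in *Xist*-bearing cells. The lower *Ccn2* of the epiblast thus rested on the *Xist*-bearing cells, and the difference between the sexes was not tested and cannot be told apart from a difference between embryos.

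**Figure D3:**
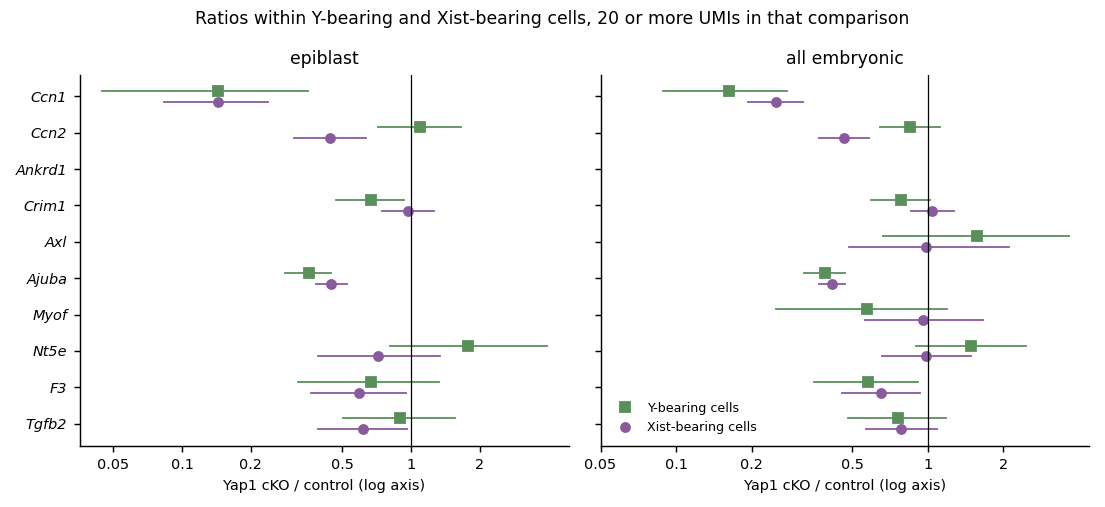
Ratio of *Yap1* cKO to control CPM (log axis) within Y-bearing cells (green squares) and *Xist*-bearing cells (purple circles), for targets with at least 20 UMIs in that comparison, with exact 95% counting intervals. *Ccn1* and *Ajuba* lie left of 1 in both sets, and the *Ccn2* intervals for all embryonic cells (0.850 and 0.465) do not overlap.

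The share of cells with a UMI was compared after each cell was thinned to 38000 UMIs, and the shallower cells, 26 of the control and 48 of the *Yap1* cKO, were left out. *Ajuba* was seen in 72.4% of 257 control epiblast cells and 42.1% of 240 *Yap1* cKO epiblast cells, with intervals of 66.5 to 77.7% and 35.8 to 48.6%. *Ccn1* was seen in 16.3% [12.0 to 21.4] and 6.25% [3.54 to 10.1]. For both genes fewer epiblast cells held a UMI, without overlap of the intervals. *Ccn2* was seen in 18.7% [14.1 to 24.0] and 12.5% [8.59 to 17.4], whose intervals overlap. *F3* was seen in 12.5% [8.67 to 17.1] and 11.25% [7.55 to 15.9], whose intervals overlap too. In extraembryonic ectoderm *Ccn1* was seen in 74.0% and 75.5% of cells. In visceral endoderm, the population with the lowest *Ccn1* level outside the deleted lineages, the shares were 10.1% and 5.56%. No single embryonic cell held over 6.09% of the *Ccn1* UMIs or over 1.27% of the *Ajuba* UMIs of its library's embryonic cells. For *F3*, 1 control cell held 12 UMIs, or 8.51% of those of the control embryonic cells. Visceral endoderm genes, which mark free RNA, stood in epiblast at under 1% of their library mean (0.620% in control and 0.358% in *Yap1* cKO). Summed over the embryonic populations, each with its own share, free RNA would account for about 4.48 of the 371 and 1.72 of the 115 embryonic *Ccn1* UMIs.

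*Ccn1* is also an immediate early gene that responds to tissue dissociation, so 12 other such genes, chosen after the values of these data were seen, were read beside it. In embryonic cells 3 of the 12 were at least 1.5-fold lower in *Yap1* cKO, against 7.22% of genes. They were *Egr1* (0.592), *Fosb* (0.632) and *Ier3* (0.656), and none was higher, against 3.41%. *Fos* was at 1.09, *Ier2* at 1.02, *Hspa1a* at 1.10 and *Jun* at 0.748. None of the 12 had a ratio as low as that of *Ccn1* (0.256). The list moved with the targets in some populations. In node and axial mesendoderm 4 of the 7 genes with at least 20 UMIs were lower (median log2 ratio -0.66), against 11% of genes. In primitive streak it was 3 of 7 (-0.46), against 9.05%. In epiblast, where *Ccn1* was at 0.160, 3 of 12 were lower (-0.20), against 5.81%, and none was higher, against 4.04%. In visceral endoderm, where *Ccn1* was at 0.456, 2 of 9 were lower, against 6.31%, and 2 were higher, against 5.73% (-0.04). In extraembryonic ectoderm, where *Ccn1* was at 0.910, 0 of 12 were lower, against 4.38%, and 0 were higher, against 6.77% (0.08). In lateral and cardiac mesoderm, where *Ccn1* was at 0.20, 1 of 10 was lower, against 5.55%, and 3 were higher (0.14). In blood and endothelial progenitors 0 of 7 were lower, against 5.83%, and 1 was higher (0.17). In nascent mesoderm, where *Ccn1* was at 0.829 on few UMIs, 0 of 7 were lower, against 5.66%, and 2 were higher (0.02). In anterior visceral endoderm, where *Ccn1* was at 1.63, 1 of 3 was lower, against 7.65%. The upward share of all genes was not taken in anterior visceral endoderm, nascent mesoderm, lateral and cardiac mesoderm or blood and endothelial progenitors. The part of dissociation in the *Ccn1* difference was not tested.

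Over all embryonic cells, genes of published YAP signatures beyond the 10 targets were mostly near equal. Of 10 further signature genes 9 had at least 20 embryonic UMIs, and 1 was past the fold downward, against 7.22% of genes. It was *Nuak2*, which encodes a kinase of the AMPK family (5.77 and 2.76 CPM, ratio 0.478 [0.383 to 0.593]). *Asap1*, an Arf GTPase activator and the best counted of them, had 3634 and 4159 UMIs (ratio 0.943), *Dock5* was 18.8 and 16.2 CPM (ratio 0.861) and *Fjx1* was 28.9 and 27.2 CPM (ratio 0.942). The median log2 ratio of these 9 was -0.09. Single populations differed. In epiblast the median was -0.38, against -0.05 for all genes tested, with 1 of 9 past the fold, against 5.81%. In primitive streak 3 of 8 were lower, *Igfbp3*, *Gadd45a* and *Nuak2*, against 9.05%. In lateral and cardiac mesoderm 0 of 7 were lower (median 0.16), and in blood and endothelial progenitors 0 of 6 (0.30). In extraembryonic ectoderm *Igfbp3* and *Rbms3* were past the fold upward, 2 of 8, against 6.77% of genes.

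Of 10 Hippo and feedback genes, 4 were past the fold downward in embryonic cells, against 7.22% of genes. They were *Amotl2* (0.363), *Lats2* (0.373), *Wwc2* (0.538) and *Ptpn14* (0.571). All 10 genes of the list are known as negative regulators of YAP1. The list's median log2 ratio was -0.41. *Amot*, the angiomotin relative of *Amotl2*, was at 0.721, *Wwc1* at 0.831 and *Nf2* at 0.869. In extraembryonic ectoderm 0 of the 10 were past the fold downward, against 4.38%, and *Amot* was past it upward (ratio 1.74), against 6.77%. In visceral endoderm *Amotl1* and *Lats2* were past it downward, 2 of 10, against 6.31%, and none upward, against 5.73%. In anterior visceral endoderm *Lats1* was past it downward, 1 of 7, against 7.65%. The lower level of *Lats2* was therefore not shown to be particular to the deleted cells. Among the partners of YAP1, *Tead4* was past the fold downward in embryonic cells, while *Tead1* was at 0.800, *Tead2* at 1.02 and *Vgll4* at 0.988. *Yap1* and *Tead4* were 2 of 7 factors past it (*Yap1*, *Wwtr1*, *Tead1*, *Tead2*, *Tead3*, *Tead4* and *Vgll4*), against 7.22% of genes. *Tead4* was also past the fold downward in nascent mesoderm, node and axial mesendoderm and anterior visceral endoderm.

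**Figure D4:**
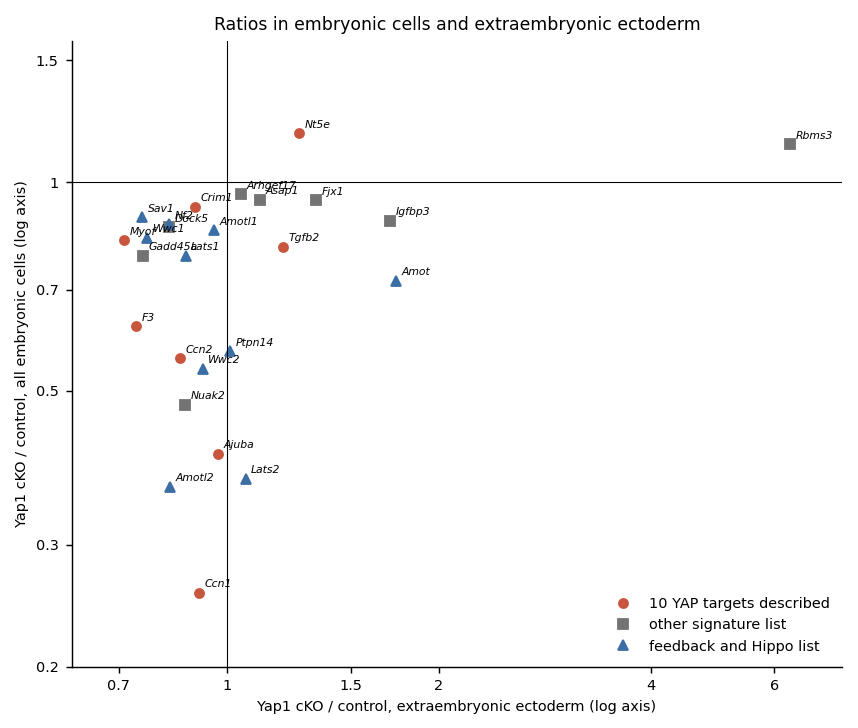
Ratio of *Yap1* cKO to control CPM in extraembryonic ectoderm (horizontal, log axis) and in all embryonic cells (vertical, log axis) for the targets described here (red circles), further signature genes (grey squares) and Hippo and feedback genes (blue triangles) with at least 20 UMIs in both tissues. *Ccn1*, *Ajuba*, *Nuak2*, *Lats2* and *Amotl2* lie low on the vertical axis and between 0.829 and 1.06 on the horizontal axis.

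Across the 18 combinations of population and library, the genes whose log2(CPM + 1) pattern was most like each target's were found among 12800 genes with at least 200 UMIs. They were *Med12l* for *Ccn1* (Pearson's r = 0.882), *Ppp4r1* for *Ccn2* (0.818), *Atf1* for *Ajuba* (0.743) and *Fbxl19* for *F3* (0.932). For the others they were *Mtfp1* for *Crim1* (0.926), *Gpbp1* for *Myof* (0.939), *Arl15* for *Nt5e* (0.898) and 9930021J03Rik for *Tgfb2* (0.853). *Ajuba* had the lowest of these values. The 18 points share 2 libraries, and the likeness is a description.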

How the data were processed

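Per the labels and file headers, the authors ran Cell Ranger 7.1.0 with the mm10 genome and deposited raw UMI counts per gene and barcode. Barcodes with at least 5000 genes and at most 10% mitochondrial UMIs were kept, and 2 control cells called as doublets by scrublet (scanpy 1.11.5, Python 3.11.15) were left out. The kept 789 control and 864 *Yap1* cKO cells were gated in order by marker sums in CPM, with thresholds set after the data were seen. Visceral endoderm needed 1000 CPM, extraembryonic ectoderm 300, blood 200, node, mesoderm and epiblast gates 100 and primitive streak 20. Cells with visceral endoderm signal between 200 and 1000 CPM, and those with both extraembryonic signals, were left out as mixed (4 control and 8 *Yap1* cKO cells). The authors' SoupX correction was not repeated.

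Counts were summed per population and library. Intervals are exact at 95% (levels by Poisson, ratios by the conditional binomial and shares by the Clopper-Pearson method, SciPy 1.17.1) and cover counting error only. With 1 library per genotype there was no test. A gene needed 20 UMIs over both libraries in a population to be counted as past 1.5-fold. Scripts were tested on simulated data. Coordinates are from GENCODE M21 on GRCm38. The 10 targets, the lists and the populations were chosen with earlier results of these data known. Named genes are all 10 targets, the best counted genes of each list and, chosen after their values were seen, the listed genes past the fold.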

Additional observations from a re-analysis of the deposited data

Results flagged for a closer look

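*Ccn1*, *Crim1*, *Ccn2* and *Ajuba* had ratios on opposite sides of 1 in 2 sets of cells, and none of these differences was tested. In each pair the interval of the higher ratio included 1, and for *Crim1* that of the lower ratio did too. *Ccn1* was lower in *Yap1* cKO epiblast (ratio 0.160) and higher in anterior visceral endoderm (ratio 1.63, on 11 and 25 UMIs in 18 cells each). *Crim1* was lower in nascent mesoderm (ratio 0.517) and higher in primitive streak (ratio 1.82), the 2 populations that follow each other in the gates. *Ccn2* in epiblast was at 1.09 in Y-bearing cells and at 0.444 in *Xist*-bearing cells. *Ajuba* in extraembryonic ectoderm was at 0.612 in Y-bearing cells and at 1.35 in *Xist*-bearing cells.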

How the results depend on the processing

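No paired analysis was possible because each genotype has 1 library, and leaving out a replicate was not possible for the same reason. Among the alternatives run, *Ajuba* in all embryonic cells stayed between 0.383 and 0.420, *Ccn1* between 0.162 and 0.305 and *F3* between 0.532 and 0.707. Within Y-bearing cells *Ccn1* moved to 0.162, *Ccn2* to 0.850 and *Crim1* to 0.782 over all embryonic cells, *Ccn2* in epiblast turned to 1.09, and *Ccn2* over all embryonic cells was 0.465 within *Xist*-bearing cells. Within Y-bearing cells the number of targets at least 1.5-fold lower was 2 in epiblast, 4 in extraembryonic ectoderm and 1 in primitive streak. It was 2 in node and axial mesendoderm (called node below) and 0 in visceral and anterior visceral endoderm. Within *Xist*-bearing cells it was 2 in lateral and cardiac and 1 in nascent mesoderm. These subsets hold fewer UMIs, and the share of all genes past the fold was not taken within them. At 2-fold it was 2 in all embryonic cells, epiblast and lateral and cardiac mesoderm, 1 in nascent mesoderm and visceral endoderm and 0 in anterior visceral endoderm. With a minimum of 1 UMI it was 3 in anterior visceral endoderm, 5 in nascent mesoderm, 8 in node and 4 in visceral endoderm, and with a minimum of 50 UMIs 2 in node and 1 in visceral endoderm. With cells assigned by the highest marker score it was 2 in epiblast and 2 in anterior visceral endoderm, with gate thresholds multiplied by 2 it was 3 in node, and with cells weighted equally 1 in extraembryonic ectoderm. For these other settings too the share of all genes past the fold was not taken, so the counts have no background beside them. Unthinned shares of epiblast cells with a UMI were 92.7% and 68.0% for *Ajuba*, 29.9% in control for *Ccn1*, and 30.7% and 23.6% for *Ccn2*. A ratio was read as kept when it stayed inside its main interval, and a count when it stayed within 1.5 times, so that 3 or 5 stood for 4. By this measure 259 of the counts, embryonic ratios and shares were kept and 33 were not, and of the ratios in epiblast and extraembryonic ectoderm 222 were kept, 16 moved and 1 reversed. A kept count need not hold the same genes, since within Y-bearing embryonic cells *Myof* (0.571) was past the fold and *Ccn2* was not. Splits of the epiblast by *Fgf8* and ratios without the top cell were chosen after the data were seen. Epiblast cells without *Fgf8* UMIs were 90 of 261 in control and 36 of 250 in *Yap1* cKO. The *Yap1* cKO epiblast cells were deeper (median 87782.5 against 73222 UMIs), and cells were not thinned before this split. The paper reports *Fgf8* itself as raised in *Yap1* cKO epiblast. Whether the make-up of the epiblast differed was not tested. In cells without and with *Fgf8* UMIs *Ccn2* was at 0.998 and 0.547, *Ajuba* at 0.262 and 0.454 and *Tgfb2* at 0.161 and 0.904. In cells without *Fgf8* UMIs the *Ccn2* value rested on 24 and 9 UMIs [0.408 to 2.22]. The *Tgfb2* value there rested on 33 and 2 UMIs [0.0187 to 0.630]. Depth limits *Axl*, *Ankrd1* and single populations with under 50 UMIs.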
